A study of Mus musculus with 14 samples.

Results

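A set of 40 named genes of DNA replication and cell division, 18 of S phase and 22 of mitosis, was looked up in read counts from liver sinusoidal endothelial cells (LSECs), which form the fenestrated lining of hepatic capillaries. Identifiers in the count files were translated to mouse gene symbols, and 38 of the 40 listed genes were matched to one of 23930 targets, 17 of S phase and 21 of mitosis. Ccnb1 and Pcna were not matched and are not analysed here. Gins2, a subunit of the replicative helicase, was matched but had 0 to 12 reads per library and did not pass the filter on low counts, so 37 genes were tested. The question was whether their messenger RNA differed between aged and young LSECs, gene by gene and as a mean level per library.

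All cells came from female wild-type mice of strain C57BL/6J and were sorted from liver by flow cytometry as CD45-dim, STAB2-high and CD146-high. The 7 aged libraries were from mice of 10 to 11 months and the 7 young libraries from mice of 8 to 10 weeks. The work was done as experiment 1, with 3 libraries per age, and experiment 2, with 4 per age, and libraries are named here by age, experiment and number, so that young 2.4 is the fourth young library of experiment 2. The labels do not say whether each library is a separate mouse, so p-values speak only for the variation among these samples, some of which may be technical.

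A cell that enters the cycle first switches on genes for copying its DNA. In resting cells the retinoblastoma family holds E2F factors silent, and cyclin-dependent kinases lift that block, so that E2F targets such as the Mcm helicase subunits and the nucleotide-synthesis enzymes are transcribed. Later, factors that include B-Myb and FoxM1 act through a promoter element called CHR, often beside CCAAT boxes, to switch on cyclins, kinases and spindle proteins for mitosis. Endothelial cells of a healthy adult liver divide rarely, and these genes are the usual readout of the few that do.

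The 14 libraries held 6710403 to 13977361 gene reads, of which 4427 (aged 2.2) to 18973 (young 2.4) fell on the 38 matched genes. The reads come from a panel that amplifies 1 short target per gene, so levels are given in CPM, counts scaled to the library's gene reads, and are compared between libraries, not between genes. Stab2, the receptor used in the sort, lay between 1713 and 2250 CPM in all 14 libraries. As a yardstick for reads that reach targets of genes silent in liver, 1325 targets of olfactory, vomeronasal and taste receptors took 0.146 to 3.18% of gene reads, with a mean 95th percentile of 30.1 CPM and a mean median of 11.5 CPM per target. Mean levels of 9 of the 38 genes exceeded that 95th percentile and 19 exceeded the median. In single libraries the receptor median ranged from 1.02 CPM (aged 2.3) to 22.6 CPM (aged 1.1). Targets differ in how well they amplify, so this places the genes only roughly.

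Promoter sequences were taken from RefSeq on build GRCm38.p6 as windows of 300 bases, 250 before the gene's start and 50 after, and 32 of the 40 listed genes had one. Both strands were searched, and a gene was counted where any of its windows held the letters. An E2F motif (TTTCCCGC, TTTGGCGC, TTTCGCGC or TTTGCCGC) stood in 6 of 15 S phase genes (40%), in 1 of 17 mitosis genes (5.88%) and in 2.6% of all 27025 genes. A CHR (TTTGAA or TTCGAA) stood in 13 of 17 mitosis genes (76.5%), in 4 of 15 S phase genes (26.7%) and in 21.7% of all. The letters CCAAT stood in 88.2% of mitosis genes, 66.7% of S phase genes and 41.1% of all. Every mitosis gene with a CHR also held a CCAAT in the same window, as did 8.61% of all genes. These counts describe letters in a window and do not show that a factor binds there.

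The 250 bases before the start are printed 5′ to 3′ along the gene for 5 genes that carry the results below, with motif letters on either strand in capitals. Cdk1 (chr10:69352913-69353162, minus strand) had the smallest p for age among the 37 genes, and its stretch holds an E2F motif, 2 CHR and 3 CCAAT. Ube2c (chr2:164769679-164769928, plus strand) had the largest excess in young 2.4, and its stretch holds 1 CHR and 6 CCAAT. Top2a (chr11:99024190-99024439, minus strand) holds 4 CHR and 6 CCAAT. E2f8 (chr7:48881597-48881846, minus strand) was the gene that passed the test between experiments, and it holds 1 CHR and 1 CCAAT. Mcm6 (chr1:128359706-128359955, minus strand) stands for the S phase genes with E2F motifs and holds 3 of them with 2 CCAAT.
Cdk1: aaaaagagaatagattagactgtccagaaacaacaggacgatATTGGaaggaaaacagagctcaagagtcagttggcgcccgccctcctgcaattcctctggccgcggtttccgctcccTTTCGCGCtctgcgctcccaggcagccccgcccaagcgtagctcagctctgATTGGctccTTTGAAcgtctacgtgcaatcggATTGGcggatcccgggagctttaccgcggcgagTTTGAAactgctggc
Ube2c: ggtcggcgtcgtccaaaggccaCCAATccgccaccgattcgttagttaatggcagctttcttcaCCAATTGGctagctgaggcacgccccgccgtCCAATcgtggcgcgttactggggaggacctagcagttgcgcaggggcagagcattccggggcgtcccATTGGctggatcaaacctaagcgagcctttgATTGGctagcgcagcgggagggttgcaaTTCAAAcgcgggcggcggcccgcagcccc
Top2a: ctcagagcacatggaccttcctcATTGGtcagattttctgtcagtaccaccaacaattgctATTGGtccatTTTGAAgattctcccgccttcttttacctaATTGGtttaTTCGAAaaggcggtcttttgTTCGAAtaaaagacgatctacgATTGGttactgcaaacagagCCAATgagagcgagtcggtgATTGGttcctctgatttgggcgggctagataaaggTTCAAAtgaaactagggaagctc
E2f8: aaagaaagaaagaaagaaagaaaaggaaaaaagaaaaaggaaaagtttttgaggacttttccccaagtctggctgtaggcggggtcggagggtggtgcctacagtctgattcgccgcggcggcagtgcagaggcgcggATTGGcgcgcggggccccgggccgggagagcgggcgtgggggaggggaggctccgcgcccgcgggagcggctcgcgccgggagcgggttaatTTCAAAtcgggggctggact
Mcm6: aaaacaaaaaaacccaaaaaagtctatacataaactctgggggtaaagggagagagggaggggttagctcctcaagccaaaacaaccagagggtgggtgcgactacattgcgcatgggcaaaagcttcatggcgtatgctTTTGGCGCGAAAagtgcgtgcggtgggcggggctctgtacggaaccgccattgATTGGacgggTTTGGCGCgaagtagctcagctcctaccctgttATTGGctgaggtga

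Young 2.4 and aged 2.4, both of experiment 2, stood apart in these genes. Young 2.4 had the highest level of all 14 libraries for 29 of the 37 tested genes, where it was highest for 7.90% of all tested targets. Aged 2.4 was highest for 7 (Ccne1, Mcm4, Mcm7, Rrm2, Aurkb, Plk1 and Kif20a), and Mcm3 was highest in young 1.2. For 22 of the 37 genes these libraries held the 2 top places, which they did for 246 of all 15184 tested targets. The comparisons below were also fitted without young 2.4, without aged 2.4 and without both.

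**Figure D1:**
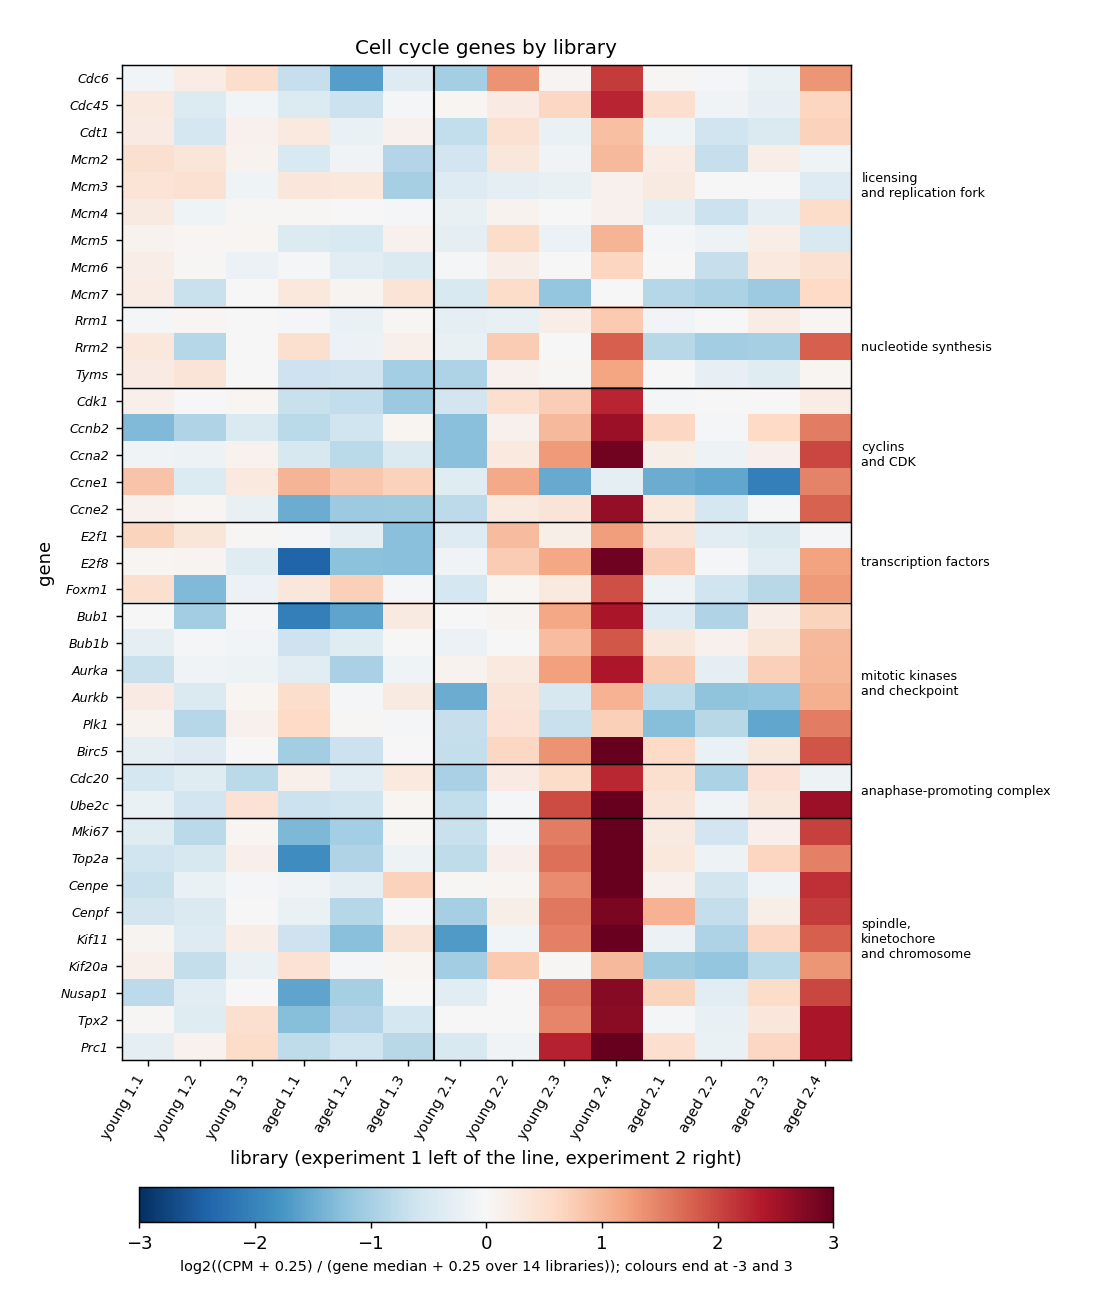
Level of each of the 37 tested genes (rows, by role) in each of 14 libraries (columns), as log2 of CPM over that gene's median, with 0.25 CPM added to both. The column of young 2.4 is dark red in most rows, aged 2.4 follows, and young 2.3 is red mainly in the spindle rows.

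The excess in young 2.4 was larger for mitosis than for S phase genes. Over 21 mitosis genes, the level in young 2.4 was a median 7.43 times the median of the other young libraries, with 1.95 for the kinase gene Plk1 at the low end and 10.3 for Ube2c at the high end. Over 16 S phase genes the median was 1.97 times, from 0.809 for Ccne1 to 7.67 for E2f8. Aged 2.4 stood a median 3.79 times above the other aged libraries for mitosis genes and 1.73 times for S phase genes. The mean log2 level over the mitosis genes was 5.58 in young 2.4, 4.67 in aged 2.4 and 4.19 in young 2.3, and the other 11 libraries lay between 2.43 and 3.31. For the S phase genes it was 4.39 in young 2.4 and 3.98 in aged 2.4, against 2.82 to 3.72 elsewhere, where young 2.3 at 3.19 did not stand out.

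**Figure D2:**
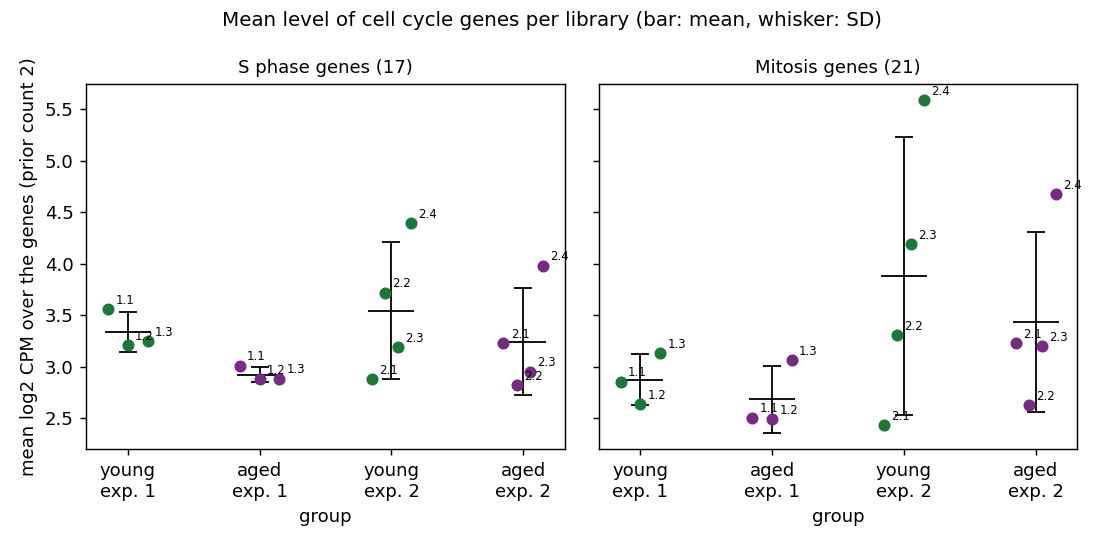
Mean log2 CPM (prior count 2) over the 17 S phase and 21 mitosis genes for each library, by age and experiment; points are libraries with their numbers, bars means and whiskers SD. Young 2.4 and aged 2.4 top both panels, and the groups of experiment 2 overlap.

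Markers of other cells were set beside this pattern, as sums of CPM, in which the targets with the most reads weigh most. In young 2.4 the 8 matched B and plasma cell markers summed to 2.12 CPM, the lowest of the 14 libraries (highest 378, in aged 1.3), with Tnfrsf17 at 0. Its 10 T and NK cell markers, at 5.08 CPM, were also the lowest (highest 525), with Ncr1 at 0. In aged 2.4 the B and plasma cell markers summed to 5.81 CPM. The T and NK cell markers there summed to 50.3 CPM, most of it from Cd2 (28.3) and Nkg7 (20.6). The 10 general leukocyte markers summed to 473 CPM in young 2.4 and 650 in aged 2.4, in a range of 421 to 1892. Most of these sums came from Fcer1g (252 and 323) and Lcp1 (172 and 279). Ptprc, which encodes CD45, was at 1.27 CPM in young 2.4 and 3.44 in aged 2.4, against up to 82.6 elsewhere. Kupffer cell and macrophage markers summed to 62.4 CPM in young 2.4 and 59.2 in aged 2.4, in a range of 55.2 to 333. Markers of monocytes, neutrophils and dendritic cells were at 287 and 216 CPM in a range of 216 to 1590, with Ccr2 and Siglech at 0 in both. Most of these 2 sums came from Zbtb46, at 269 and 199 CPM. The 8 erythroid and megakaryocyte markers summed to 79.1 CPM in young 2.4, the highest of a range that began at 42.4, and to 45.4 in aged 2.4. Hepatocyte markers were at 380 and 1240 CPM (range 355 to 4906) and cholangiocyte markers at 64.2 and 165 (range 14.1 to 801). The 9 stellate cell markers summed to 232 and 329 CPM (range 143 to 773). Of these, the collagen genes Col1a1, at 26.1 CPM, and Col3a1, at 6.87, were highest in young 2.4, at 25.5 and 6.25 times the median of the other young libraries, while Lrat and Des, at 21.5 and 17.9 CPM, were highest in aged 2.4. Their part in the cell cycle pattern was not tested. The 12 LSEC markers summed to 27384 and 29097 CPM in a range of 19683 to 34342. Single LSEC markers went both ways in young 2.4. Clec4g, at 5767 CPM, was the lowest of the 14 libraries, and Lyve1, at 2059, the highest. Among young libraries Kdr, F8 and Fcgr2b were lowest there and Stab1 and Oit3 highest, while Stab2 and Cdh5 were at 1.02 and 1.01 times the other young libraries. In a bulk library, more cells in cycle and more cell cycle RNA per cell cannot be told apart.

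**Figure D3:**
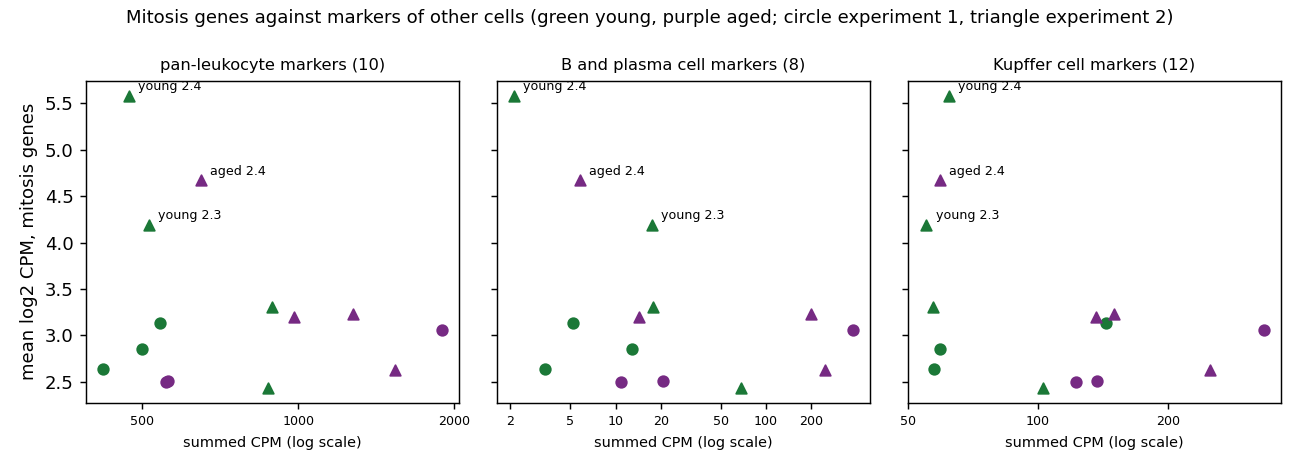
Mean log2 CPM of the 21 mitosis genes against the summed CPM (log axis) of markers of leukocytes in general, of B and plasma cells and of Kupffer cells, 1 point per library. Young 2.4 (5.58) has the lowest B and plasma cell sum, at 2.12 CPM, and the 3 libraries with the highest general leukocyte sums lie between 2.63 and 3.23. Fcer1g and Lcp1 carry most of the general leukocyte sum of young 2.4.

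With experiment as a term, none of the 37 genes passed the test for age (edgeR quasi-likelihood F test, Benjamini-Hochberg adjustment over 15184 targets, call at an adjusted p under 0.05), where 0.224% of all tested targets did. In all, 34 of the 37 had a fold change below 0 (lower in aged), against 45.6% of all targets, with a median log2 fold change of -0.48 against 0.02 over all. Counts were 20 of 21 for mitosis genes (median -0.48) and 14 of 16 for S phase genes (median -0.31). Unadjusted, 4 of the 37 had a p under 0.05 (10.8%, against 7.40% of all targets), namely Cdk1, E2f8, E2f1 and Tyms, all lower in aged. DESeq2 and limma-voom called none of the 37 either. The mean log2 level of all 38 genes, aged minus young, was -0.34, within an SD of 0.68 inside the groups, and it was -0.11 without young 2.4 and -0.28 without both libraries that stood apart.

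The counts of genes below 0 for age depended on young 2.4. Without young 2.4, 22 of the 37 genes were below 0, against 51.8% of all targets, and the median was -0.06, with -0.03 for mitosis and -0.18 for S phase genes. Without aged 2.4 all 37 were below 0, against 58.4% of all targets, with a median of -0.75 against -0.06 over all targets. Without both, 32 of 37 were below 0 against 56.6% of all targets, with a median of -0.34. None of the 37 passed the test for age in any of these fits, where 0.0264% of targets did without young 2.4 and 0.0592% without both. Leukocyte markers also leaned by age in the fit of all libraries, where 45.6% of all targets were below 0, but none passed the test. All 10 general ones had a fold change above 0 in aged (median log2 fold change 1.82). So did all 10 tested Kupffer cell markers (1.66) and all 7 tested B and plasma cell markers (3.22). Among T and NK cell markers Ncr1 (-1.07) and Gzma (-1.82) were below 0, and Zbtb46 (-0.17) among those of monocytes, neutrophils and dendritic cells. The other tested markers of those lists were above 0. With the leukocyte level as a term in the fit, 21 of the 37 cell cycle genes were below 0, with a median of -0.03, against 47.9% of all targets.

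**Figure D4:**
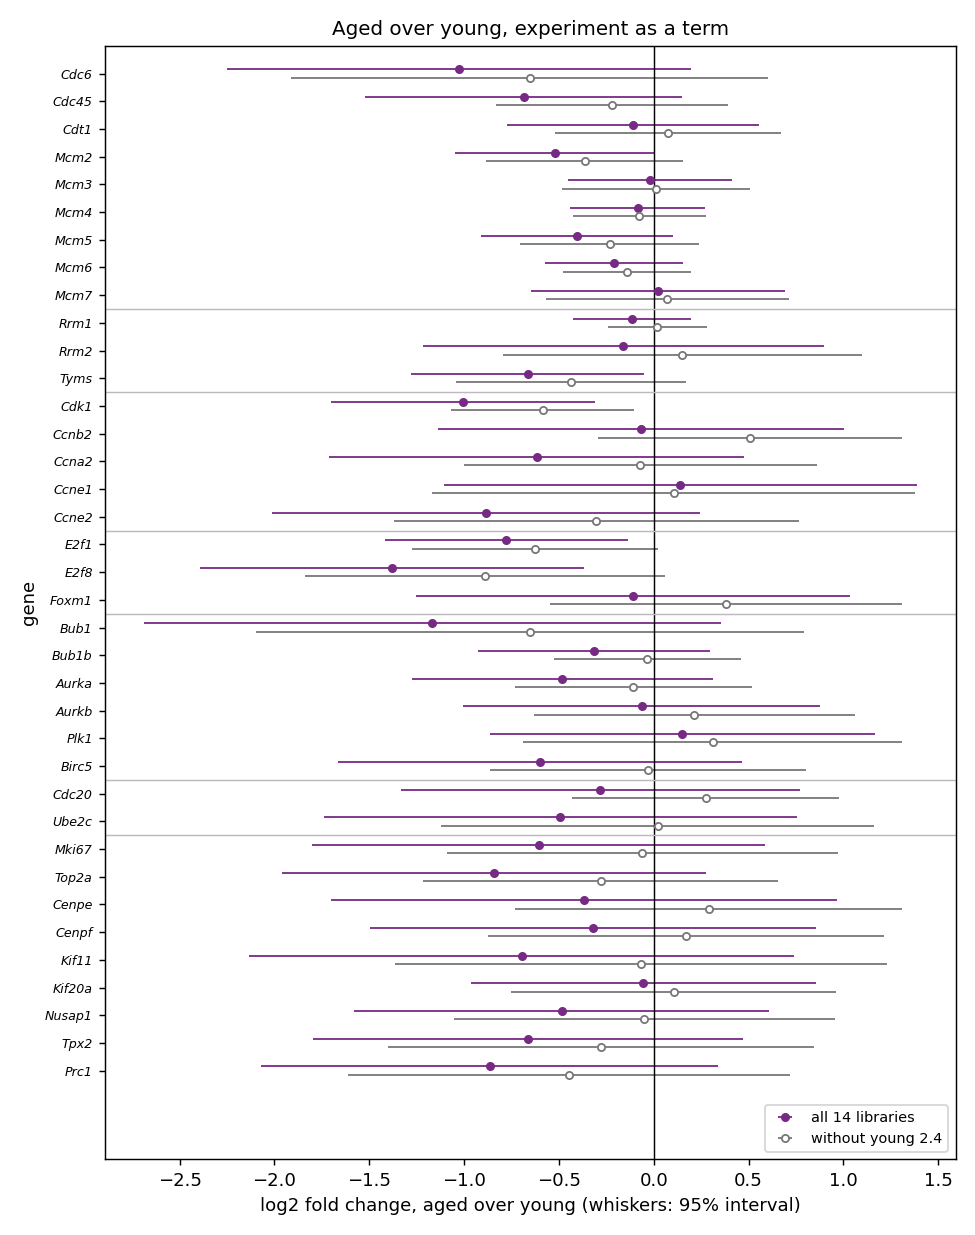
Log2 fold change of aged over young for each of the 37 genes, with 95% intervals, from all 14 libraries (filled) and without young 2.4 (open). With all libraries 34 of 37 points lie left of 0; without young 2.4 it is 22, and mitosis genes shift most.

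Within experiment 1, which holds neither of the libraries that stood apart, 26 of the 37 genes were below 0 (median -0.28) and none passed, as was true of all targets (0%, with 1008 at an unadjusted p under 0.05; DESeq2 called 92 targets and none of the 37). For 10 genes all 3 aged libraries lay below all 3 young ones, which is 27.0% of the 37 against 9.05% of all tested targets: 6 of S phase (Ccne2, Cdc6, Mcm2, Tyms, E2f1 and E2f8) and 4 of mitosis (Cdk1, Ccna2, Tpx2 and Prc1). With total reads in place of TMM scaling it was 9 of the 37 against 6.70%. One gene, Cdc20, which activates the anaphase-promoting complex, lay the other way, against 9.09% of all targets. Receptor targets had a median of 8.53 to 22.6 CPM in the libraries of experiment 1. Ccne2, Cdc6, E2f8 and Cdc20 stayed below that range there, at no more than 4.14, 1.32, 3.55 and 7.44 CPM. So did the aged values of E2f1, Tyms, Tpx2 and Prc1, at no more than 5.61, 5.96, 4.26 and 4.59 CPM. Of the 3 aged libraries, aged 1.1 and aged 1.2 resembled each other more than any other same-group pair, with a chi-square per target of 6.35 against at least 19.6.

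Experiment 2 gave 36 of 37 genes below 0 (median -0.55), none of them passing where 0.0198% of all targets did (1, Cdk1, at an unadjusted p under 0.05, and none by DESeq2), and the count turned on which library was left out. Without young 2.4 it was 11 of 37 (median 0.09), without aged 2.4 it was 36 (median -1.28) and without both it was 30 (median -0.33), against 50.1%, 51% and 47.6% of all targets. No gene had groups that did not overlap in experiment 2 (0.599% of targets lower and 1.19% higher in all aged libraries). The age effect itself differed between experiments for 0 of the 37 genes and for 0% of targets by edgeR's test of the difference, where 371 targets had an unadjusted p under 0.05, none of them among the 37, and DESeq2 called 1 target.

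Licensing and fork genes load and drive the helicase that opens DNA. The hexamer subunit gene Mcm7 had 39.4, 87.4 and 128 CPM as lowest, median and highest of the young libraries and 41, 92.5 and 133 in aged, with highs in aged 2.4 and young 2.2, and its log2 fold change was 0.02 ± 0.31 (SE). Mcm3 read 41.3, 49.7 and 74.4 CPM in young and 27.1, 54.5 and 69.1 in aged (-0.02 ± 0.20). Mcm6 read 44.1, 51.3 and 78.1 CPM in young and 30.8, 49.1 and 69.0 in aged (-0.21 ± 0.17). The ages' ranges overlapped for all 3 genes, and of them only Mcm6 was highest in young 2.4. Mcm4 read 28.2, 33.5 and 39.8 CPM in young and 20.8, 32.2 and 48.0 in aged (-0.08 ± 0.17). Mcm2 read 17.6, 33.1 and 51.9 CPM in young and 14.2, 24.1 and 30.9 in aged (-0.52 ± 0.24), and in experiment 1 its aged libraries (14.2 to 24.4) lay below its young ones (28.2 to 36.5). Cdc6, which loads the helicase with Cdt1, was near the limit of counting, with 1 to 42 reads per library: 0.287, 1.01 and 4.44 CPM in young and 0.0976, 0.707 and 2.48 in aged (-1.03 ± 0.57). The other tested genes of this role, Cdc45, Cdt1 and Mcm5, had log2 fold changes of -0.68, -0.11 and -0.40, none passing. Over the 9 tested genes the excess in young 2.4 was 1.69 times at the median and 4.74 at most, for Cdc45.

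Nucleotide-synthesis enzymes supply the building blocks of DNA. Rrm1, the large subunit of ribonucleotide reductase, had the smallest ratio of highest to lowest library of the 37 genes (2.07), at 40.6, 49.2 and 83.9 CPM in young and 42.0, 48.1 and 56.4 in aged (log2 fold change -0.11 ± 0.14). Its partner Rrm2, the subunit made in S phase, read 13.7, 25.4 and 87.2 CPM in young and 12, 22.4 and 87.3 in aged (-0.16 ± 0.49), the 2 high values being young 2.4 and aged 2.4. Without young 2.4 its log2 fold change was 0.15 and without both it was -0.44. Tyms, thymidylate synthase, read 4.67, 9.91 and 21 CPM in young and 4.35, 6.99 and 9.47 in aged. In experiment 1 Tyms was at 4.35 to 5.96 CPM in aged and 9.01 to 11.9 in young, without overlap, and in experiment 2 young 2.1 lay below every aged library. The overall fold change of Tyms was -0.67 ± 0.29 on the log2 scale (edgeR adjusted p 0.65), -0.44 without young 2.4 and -0.49 without both.

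Among E2F and Fox factors, E2f1 activates S phase genes and E2f8, itself switched on in S phase, represses them again. E2f8 had the largest fold change of those with an unadjusted p under 0.05, on 5 to 256 reads per library. It read 3.51, 3.55 and 2.56 CPM in the young libraries of experiment 1 and 0.425, 1.27 and 1.25 in the aged ones. In experiment 2 its young libraries read 3.09, 5.80, 7.76 and 27.1 CPM and its aged ones 5.72, 3.18, 2.59 and 8.07. Ages were apart in experiment 1 and overlapped in experiment 2. E2f8 was lower in aged by a log2 fold change of -1.38 ± 0.47 (edgeR adjusted p 0.54), by -0.89 without young 2.4 and by -1.09 without both. E2f1 read 4.38, 7.52 and 14.1 CPM in young and 2.26, 4.69 and 7.66 in aged, with a log2 fold change of -0.78 ± 0.30 (edgeR adjusted p 0.59). Foxm1, the mitotic activator, lay between 0.760 and 9.52 CPM (-0.11 ± 0.53).

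Cyclins and their kinase set the order of the phases. Cdk1, the kinase that drives entry into mitosis, had the smallest p for age. Its young libraries read 27.6, 24.9 and 26.1 CPM in experiment 1 and 16.8, 35.1, 41.9 and 123 in experiment 2. Its aged libraries read 15.5, 14.7 and 11.5 CPM in experiment 1 and 24.4, 24.6, 24.8 and 29.3 in experiment 2. All aged values of experiment 1 were below all young ones, and in experiment 2 only young 2.1 lay below the aged libraries. The log2 fold change of Cdk1 was -1.0 ± 0.32 (95% interval -1.70 to -0.31, edgeR unadjusted p 0.00803, adjusted p 0.47), -0.59 without young 2.4 and -0.62 without both. Cyclin A2 (Ccna2) read 10.8, 28.4 and 196 CPM in young and 14.8, 23.5 and 107 in aged (-0.62 ± 0.51), with young 2.4 and aged 2.4 at the top, and was at -0.07 without young 2.4 and -0.46 without both. Cyclin E1 (Ccne1), which opens S phase, read 2.84, 6.98 and 19.3 CPM in young and 1.89, 14.1 and 24.7 in aged (0.14 ± 0.58). Ccne1 was the one gene whose level in young 2.4 lay below the median of the other young libraries. Ccne2 and Ccnb2 had log2 fold changes of -0.89 ± 0.52 and -0.07 ± 0.50.

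Mitotic kinases and checkpoint proteins hold the cell until chromosomes are attached. The checkpoint gene Bub1b read 18.2, 21.4 and 82.4 CPM in young and 14.5, 24.4 and 44.1 in aged (log2 fold change -0.31 ± 0.28). Plk1, Polo-like kinase 1, read 7.85, 15.5 and 23.8 CPM in young and 4.72, 14.1 and 42.0 in aged (0.15 ± 0.47), and its highest library was aged 2.4. The ages' ranges overlapped for both, and without young 2.4 Bub1b was at -0.03. The other 4 genes of this role (Aurka, Aurkb, Bub1 and Birc5, which encodes survivin) had log2 fold changes from -1.17 ± 0.71 for Bub1, with 0 to 51 reads per library, to -0.06 ± 0.44 for Aurkb. For Birc5 young 2.4 stood 9.38 times above the median of the other young libraries.

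The anaphase-promoting complex tags cyclins and securin for destruction, and Ube2c is its ubiquitin-conjugating enzyme. Ube2c read 7.18, 11.6 and 114 CPM in young and 7.73, 12.7 and 73.7 in aged. Its next value in young was 48.0 CPM, in young 2.3, and the other aged libraries all lay between 7.73 and 16.1, so the ages overlapped apart from 3 libraries of experiment 2. The log2 fold change of Ube2c was -0.49 ± 0.58, 0.02 without young 2.4 and -0.48 without both. Cdc20 stood at 6.85 times the other young libraries in young 2.4 and was at 0.761 times the other aged libraries in aged 2.4.

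Spindle, kinetochore and chromosome genes stood at a median 8.62 times the other young libraries in young 2.4. Mki67 encodes Ki-67, the protein stained to count dividing cells, and it read 8.53, 14.9 and 122 CPM in young and 5.78, 15.5 and 63.6 in aged. Top2a, which untangles chromosomes, read 7.61, 14.6 and 116 CPM in young and 3.40, 11.8 and 38.1 in aged. For both genes young 2.4 was highest, and aged 2.4 was the highest aged library. Their log2 fold changes were -0.61 ± 0.55 for Mki67 and -0.84 ± 0.52 for Top2a, and without young 2.4 they were -0.06 and -0.28, and without both libraries -0.47 and -0.48. Kif20a, a kinesin of cytokinesis, read 21.8, 46.7 and 89.6 CPM in young and 20.2, 44.1 and 115 in aged (-0.05 ± 0.42). All 9 genes of this role were below 0 for age and none passed, with a range from -0.87 for Prc1, which bundles the central spindle, to -0.05 for Kif20a. Without young 2.4 it was 6 of the 9, with a median of -0.06, and without both it was 9, with a median of -0.44. In young 2.4, 8 of the 9 exceeded the median of the other young libraries by over 5 times, from 6.65 for Tpx2 to 9.97 for Prc1, and Kif20a by 2.08 times.

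Between experiments, 1 of the 37 genes passed, where 2.77% of all targets did: E2f8 was higher in experiment 2 by a log2 fold change of 2.02 ± 0.50 (edgeR adjusted p 0.049). Its adjusted p ranged from 0.0014 to 0.12 over 26 other settings, and in 10 of the 14 fits that left out 1 library the call was lost; it was kept without young 2.1, young 2.2, aged 2.2 or aged 2.4. In all, 32 of 37 genes were above 0 (median 0.96), with 20 of 21 mitosis genes (median 1.5) and 12 of 16 S phase genes (median 0.24), against 7524 of all 15184 targets (median -0.01). Without young 2.4 and aged 2.4, 27 of 37 were above 0 (median 0.54), with 17 of 21 mitosis genes (median 0.89) and 10 of 16 S phase genes (median 0.15), against 9090 of 15192 targets (median 0.14). Unadjusted, 14 of the 21 mitosis genes and 4 of the 16 S phase genes had a p under 0.05, against 25.7% of all targets. Without young 2.4 none of the 37 passed and E2f8 had an adjusted p of 0.062. Without young 2.4 and aged 2.4 there were 2 (E2f8 and Aurka, against 13.1% of targets), without aged 2.4 there were 11 (against 33.6%), and without young 2.2 and aged 2.4 there were 18, of which 16 were higher (against 53.3%). DESeq2 called 15 of the 37, and it also called more of all targets than edgeR did, with the count given in the closing section. The experiments also differed in receptor-target reads, which made up 1.20 to 3.18% of a library in experiment 1 and 0.146 to 2.92% in experiment 2. Markers of other cells differed as well: the 5 cholangiocyte markers summed to 14.1 to 25.7 CPM in experiment 1 and 36.1 to 801 in experiment 2. Most of the highest sum came from Spp1, at 729 CPM in aged 2.2. Of these markers, Epcam (log2 fold change 3.79, edgeR adjusted p 0.0097), Sox9 (4.82, 0.023) and Spp1 (4.42, 0.023) passed the test. Krt7 (2.51, edgeR adjusted p 0.12) and Krt19 (-0.02, 0.96) did not. The stellate cell marker Hgf (0.98, edgeR adjusted p 0.045) and the endothelial marker Pecam1 (0.59, 0.047) also passed, each alone in its list. Which of the experiments' differences the genes follow cannot be told apart.

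A smaller share of the genes than of all targets varied with the receptor-target reads. The fit held age, experiment and the log2 share of receptor reads. In it 5 of the 37 genes had a slope that passed edgeR's test, all positive, where 34.3% of all targets passed in either direction. All targets here include the 1143 tested receptor targets, whose own reads make up that term. Ccne1 gained 0.80 ± 0.09 (SE) log2 units per doubling of that share (adjusted p 2.1e-06), Mcm7 0.41 ± 0.07, Plk1 0.55 ± 0.13, Kif20a 0.39 ± 0.13 and Rrm2 0.46 ± 0.17. Mki67 had a slope of 0.12 ± 0.24 and Cdk1 one of -0.09 ± 0.13. The 7 genes that were highest in aged 2.4 were these 5 together with Mcm4 and Aurkb, whose slopes had edgeR adjusted p of 0.086 and 0.089. Aged 2.4 had 2.81% receptor reads against 0.425% in young 2.4. With that term in the fit, 35 of the 37 genes were below 0 for age, against 48.9% of all targets, and none passed. Such a fit without young 2.4 is not given here.

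**Figure D5:**
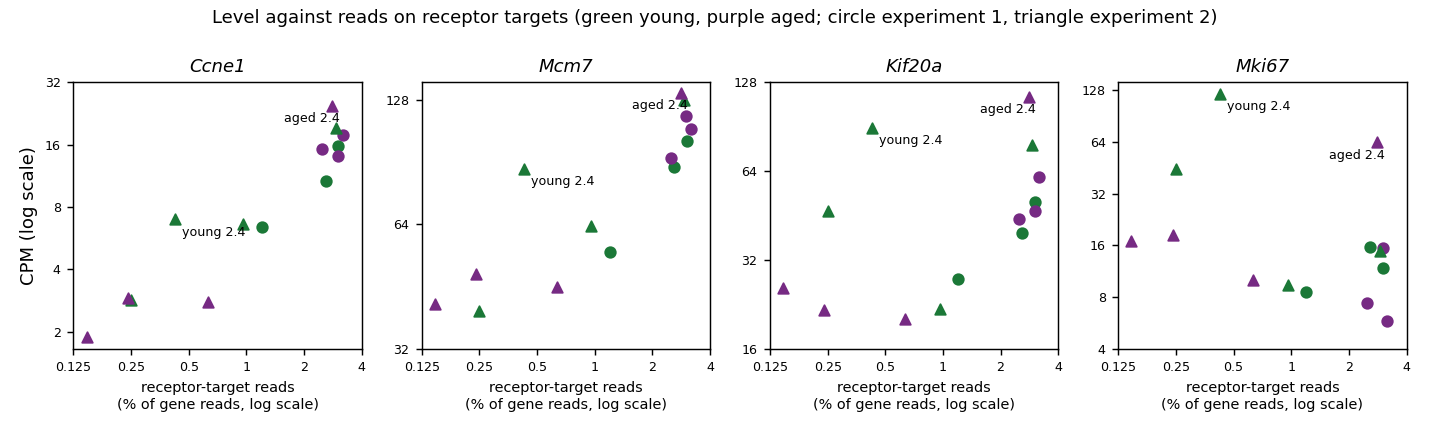
CPM of Ccne1, Mcm7, Kif20a and Mki67 (log axis) against the share of gene reads on receptor targets (log axis) in the 14 libraries. Ccne1 and Mcm7 climb with that share and aged 2.4 tops both, while Mki67 is highest in young 2.4, at 122 CPM and a share of 0.425%.

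The 40 genes were set beside others of the same pathways. None of 39 other S phase genes, 54 tested other mitosis genes and 33 tested regulators of G1, the retinoblastoma family and E2F passed the test for age. Of all tested targets 0.224% passed it, 45.6% were below 0 and 7.90% were highest in young 2.4. Other mitosis genes were below 0 in 53 of 54 (median log2 fold change -0.46) and highest in young 2.4 in 51 of 54. Without young 2.4 it was 35 of 54 (median -0.12, against 51.8% of all targets), and without both libraries that stood apart 47 of 53 (median -0.26, against 56.6%). Those with the smallest p were the checkpoint kinase gene Ttk (-1.30 ± 0.56), the kinesin gene Kifc1 (-1.13 ± 0.50) and the cyclin gene Ccnf (-0.87 ± 0.41), at 6.53, 9.11 and 6.87 times the other young libraries in young 2.4. The most abundant were the tubulin gene Tubb5 (mean 598 CPM, -0.18 ± 0.14), the checkpoint gene Bub3 (158 CPM, -0.16 ± 0.10) and the centromere chaperone gene Hjurp (124 CPM, -0.23 ± 0.19). Other S phase genes were below 0 in 34 of 39 (median -0.31) and highest in young 2.4 in 28 of 39. Without young 2.4, 27 of 37 were below 0 (median -0.14), and without both 31 of 37 (median -0.23). Their smallest p belonged to the origin recognition gene Orc6 (-0.61 ± 0.18, edgeR adjusted p 0.40), the maintenance methyltransferase gene Dnmt1 (-0.37 ± 0.13) and its recruiter Uhrf1 (-1.13 ± 0.44). Their most abundant members, Rpa1 (263 CPM), Pola2 (148 CPM) and Slbp (114 CPM), had log2 fold changes of -0.01, -0.30 and -0.23. The G1 and E2F regulators were below 0 in 30 of 33 with a median of -0.14, and 18 were highest in young 2.4. Both without young 2.4 and without the pair, 22 of 33 were below 0, with medians of -0.08 and -0.09. Among them the pocket-protein gene Rbl2 was higher in aged by 0.46 ± 0.15 (edgeR adjusted p 0.47), while the atypical E2F gene E2f7 and the mitotic activator gene Mybl2 were at -0.96 ± 0.32 and -1.23 ± 0.46. The most abundant, Cdk4 (346 CPM), Ccnd3 (197 CPM) and Ccnd2 (166 CPM), had log2 fold changes of -0.03, -0.15 and -0.31.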

How the data were processed

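RNA from sorted LSECs was made into libraries with the Ion AmpliSeq mouse transcriptome kit, per the labels' protocols. The authors deposited raw counts per RefSeq target, 1 file for each library. HTSeq 0.6.0 and DESeq2 1.18.1 are the software named in the submitters' processing notes. Which aligner and genome build were used is not given in the sources used here. Rows of the counting tool that name no gene held 1.24 to 3.04% of reads and were left out. Identifiers were translated with the RefSeq table of GRCm38.p6 (18128 targets with their version, 4324 without) and GENCODE (110), and 1368 stayed unmatched. In R 4.3.3, edgeR 4.0.16 was run on all 14 libraries with TMM scaling and filterByExpr by age and experiment (15184 targets), with age and experiment as terms. A model of 4 means gave the contrasts within experiments. The fit was tested on simulated data. DESeq2 1.42.0 and limma-voom 3.58.1 were alternatives. Reads carry no molecular identifiers. Scores are mean log2 CPM with a prior count of 2. Values are named for genes that passed a test, the 6 most abundant per phase, the 6 with the smallest p for age each way, Mki67 and Top2a, and from each pathway list the 3 with the smallest p and the 3 most abundant. The 40 genes and all lists were chosen with earlier results of these data known. The level of 1 marker gene is not reported here.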

Additional observations from a re-analysis of the deposited data

Results flagged for a closer look

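Within each age group of 7, a library was picked out where its gap to the next value was more than 0.568 of the group's whole range. About 1 of 20 groups of 7 independent values from a normal distribution would pass that mark. The rate cannot be carried over to these groups, which pool 2 experiments and hold genes that vary together, so the flags serve as description only. Of 82 groups (38 genes and 3 mean levels, in young and in aged), 41 held such a library. It was young 2.4 in 23 and aged 2.4 in 18, always as the highest value.

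In young 2.4 these were 17 mitosis genes, at Aurka 35.5, Birc5 114, Bub1 5.39, Bub1b 82.4, Ccna2 196, Ccnb2 53.8, Cdc20 29.8, Cdk1 123, Cenpe 31.3, Cenpf 42.0, Foxm1 9.52, Kif11 17, Mki67 122, Nusap1 36.7, Top2a 116, Tpx2 42.7 and Ube2c 114 CPM. There were 6 S phase genes as well, at Ccne2 24.7, Cdc45 11.3, E2f8 27.1, Mcm6 78.1, Rrm1 83.9 and Rrm2 87.2 CPM. Prc1 at 70.3 CPM was not among them because young 2.3 stood at 35.9.

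In aged 2.4 they were 11 mitosis genes, at Birc5 50.5, Ccna2 107, Ccnb2 26.2, Cenpe 15.2, Cenpf 25.3, Kif11 7.43, Mki67 63.6, Nusap1 22.1, Prc1 39.6, Tpx2 35.7 and Ube2c 73.7 CPM. The 4 S phase genes were Ccne2 at 13.6, Cdc6 at 2.48, Gins2 at 1.29 and Rrm2 at 87.3 CPM. The mean log2 levels of aged 2.4 were picked out too, at 4.36 for all 38 genes, 3.98 for S phase and 4.67 for mitosis. The young libraries' mean levels were not, since young 2.3 and young 2.2 lay between young 2.4 and the rest.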

How the results depend on the processing

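None of the 37 tested genes was called for age, in either experiment or for the difference between experiments, in any of the 28 alternatives to the age comparison, which were run for all 4 where they could be fitted. Depth limits the rarest genes most: Bub1, Cdc6, E2f8, Kif11 and Foxm1 each had a library with under 10 reads. Genes below 0 for age were 34 of 37, and 21 with a leukocyte term and 22 without young 2.4. The mean level of all 38 genes, aged minus young, was below 0 in every setting run.

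Replicate numbers were not used as pairs in the main fit. Deviations of same-numbered libraries correlated at -0.31 (number 2.4) to 0.74 (number 2.3), and 6 of 14 libraries correlated best with their own number. These values do not settle whether the numbers mark pairs. With the numbers as a replicate block, 2 targets were called for age and 0 in experiment 2, and the contrast between experiments could not be fitted.

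Targets called for age numbered 34, and 143 with DESeq2, 58 with a receptor term, 7 with a leukocyte term, 19 with no experiment term, 11 with aged 1.1 and aged 1.2 summed, 9 without young 2.4 and aged 2.4, and 4 to 29 with 1 library left out (4 without young 2.4). In experiment 1 they numbered 0, and 92 with DESeq2, 1 with limma-voom, 3 with a receptor term and 2 without young 2.2 and aged 2.4. In experiment 2 they numbered 3, and 50 with DESeq2, 5 with limma-voom or no TMM, 18 with a receptor term and 1 with no filter, a mean of at least 1 CPM, a leukocyte term, summed libraries, without young 2.4 and aged 2.4 or with a filter by age only, and 1 to 4 with 1 left out. For the difference DESeq2 called 1.

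Between experiments 420 targets were called, and 2175 with DESeq2, 4381 with limma-voom, 654 with no TMM, 735 with DESeq2 size factors, 1052 with a mean of at least 1 CPM, 19 with a receptor term, 686 with a leukocyte term, 105 with summed libraries, 8070 without young 2.2 and aged 2.4, 1996 without young 2.4 and aged 2.4, 1103 with a filter by age only, and 90 to 5095 with 1 left out. Of the 37 genes, 1 was called, and 15 with DESeq2, 3 with a mean of at least 1 CPM or a filter by age only, 5 with a leukocyte term, 18 without young 2.2 and aged 2.4, 2 without young 2.4 and aged 2.4, 0 with no filter, a receptor term or summed libraries, and 0 to 16 with 1 left out (16 without young 2.2, 11 without aged 2.4).

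Signs of log2 fold changes for age near 0 also turned. Mcm7 was at -0.0095 with DESeq2, -0.0086 with its size factors, -0.0061 with no filter, -0.0026 with a mean of at least 1 CPM, -0.10 without young 2.2 and aged 2.4, -0.16 without young 2.4 and aged 2.4, and -0.25 to 0.15 with 1 left out. Plk1 was at -0.0086 with limma-voom, -0.10 with the replicate block or a receptor term, -0.43 without young 2.2 and aged 2.4, -0.28 without young 2.4 and aged 2.4, and -0.51 to 0.33 with 1 left out. Ccne1 was at -0.068, -0.30 and -0.63 with the block and without those pairs, and -0.65 to 0.45 with 1 left out. With a leukocyte term Mcm3 was at 0.14, Rrm2 at 0.12, Mcm4 at 0.050, Kif20a at 0.17, Ccna2 at 0.061 and Ube2c at 0.17. Without young 2.4 and aged 2.4, Mcm3 was at 0.056 and Rrm1 at 0.024. With 1 left out, Mcm3 ranged from -0.12 to 0.12, Rrm1 from -0.24 to 0.018, Rrm2 from -0.82 to 0.15, Kif20a from -0.56 to 0.12 and Ube2c from -1.07 to 0.021. The cause was not tested.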
